A study of Homo sapiens with 8 samples.

Results

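The 35 genes described here are ATF4 and genes of the integrated stress response, chosen by symbol: ATF4 itself, transcription factors that act with it, eIF2 kinases, and reported ATF4 targets for stress output, amino acid synthesis and amino acid transport. All 35 were found among 55737 named genes, and all 35 passed the filter of a mean of at least 10 normalised counts, leaving them among 19393 genes tested. They were measured by RNA sequencing of LNCaP, an androgen-sensitive human prostate cancer cell line. Control cells, cells given 40 µM of the O-GlcNAc transferase (OGT) inhibitor OSMI-2, cells given 0.5 µM of the cyclin-dependent kinase (CDK) inhibitor AT7519, and cells given both agents at those doses were harvested after 4 h, with 2 libraries in each group. The series design gives these doses, whereas the treatment field writes the same figures in mM. Nothing states what the control cells received or whether the 2 libraries of a group came from separate cultures, so p-values reflect the spread among these libraries alone, and that spread may be technical.

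In the integrated stress response, kinases such as PERK (EIF2AK3) and GCN2 (EIF2AK4) phosphorylate the translation factor eIF2 when proteins misfold or amino acids run short. General translation then slows, while translation of the ATF4 mRNA increases through its upstream open reading frames. ATF4 dimerises with C/EBP proteins on C/EBP-ATF response elements and raises genes for amino acid uptake and synthesis, feedback inhibitors such as TRIB3 and, under sustained stress, DDIT3 and CHAC1. RNA levels cannot show eIF2 phosphorylation or ATF4 protein, neither of which was measured.

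The response element itself is shown first because it is the sequence through which ATF4 is known to act on genes of this list. RefSeq promoter windows (GRCh38.p14, 250 bases before to 50 after a transcription start) matched 29 of the 35 genes by symbol, with 48 windows; ALDH1L2, EIF4EBP1, NUPR1, PSPH, SHMT2 and SLC7A11 were not matched. The 9-base motif TGATGNAAN, searched on both strands, was present in 9 of the 48 windows (18.8%), 1 window each of 9 genes, and in 3.61% of all 35116 windows. The 9 matches are printed on their gene's strand with up to 10 bases on each side and the motif in capitals.
ATF3: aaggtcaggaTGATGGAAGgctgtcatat
CEBPG: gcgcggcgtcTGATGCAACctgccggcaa
JDP2: tagccggggcTGATGCAACccgtcccgcc
CHAC1: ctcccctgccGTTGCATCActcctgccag
ASNS: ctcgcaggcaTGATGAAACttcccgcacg
SLC7A1: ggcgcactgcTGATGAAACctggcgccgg
SLC3A2: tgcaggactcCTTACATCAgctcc
SLC1A4: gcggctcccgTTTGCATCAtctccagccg
SLC1A5: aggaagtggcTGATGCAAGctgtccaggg
In CHAC1, SLC3A2 and SLC1A4 the motif lies on the strand opposite to the gene, so the capitals read as its reverse complement.

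The printed stretches lie at chr1:212565206-212565234 (ATF3, plus strand), chr19:33374061-33374089 (CEBPG, plus), chr14:75427996-75428024 (JDP2, plus), chr15:40953251-40953279 (CHAC1, plus), chr7:97872458-97872486 (ASNS, minus), chr13:29595663-29595691 (SLC7A1, minus), chr11:62881725-62881748 (SLC3A2, plus), chr2:64989381-64989409 (SLC1A4, plus) and chr19:46784893-46784921 (SLC1A5, minus). Counted in bases from the start, with negative positions before it, the first base of the motif stood at -210 in CHAC1, -191 in ATF3, -97 in SLC1A5, -68 in ASNS, -42 in CEBPG, -16 in JDP2, -8 in SLC1A4, 7 in SLC7A1 and 36 in SLC3A2. These are letter matches, and binding was not measured. Of these 9 genes, ATF3, CEBPG, JDP2, CHAC1 and SLC7A1 fell with AT7519, ASNS rose on the deposited scale, and SLC3A2, SLC1A4 and SLC1A5 were not called. The CCACG motif, part of the endoplasmic reticulum (ER) stress response element, was in 28 of the 48 windows (58.3%), those of 19 of the genes, against 38.1% of all windows.

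Depth, as recovered from the values, was between 60152700 and 154367000 reads per library (rounded to 6 digits), and the smallest read number of any listed gene in any library was 93, so none had a count near 0. All 11 luminal prostate markers were present in every library, with a lowest value of 6764 normalised counts for EPCAM. Of the markers of other cells reported here, PTPRC, CD3E, KRT5, TP63 and CHGA stayed between 0 and 3.93, SYP ranged from 58.9 to 99.4, COL1A1 from 1814 to 3726 and COL3A1 from 358 to 789, and PECAM1 was not found. Mitochondrial mRNAs took 4.45 to 5.53% of counts where AT7519 was absent and 6.57 to 7.73% where it was present. The listed genes together made up 0.517 to 0.522% of counts in control, 0.590 to 0.691% under OSMI-2, 0.396 to 0.403% under AT7519 and 0.480 to 0.539% under both agents. These are bulk libraries, in which fewer cells and less RNA per cell cannot be told apart.

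OSMI-2 alone raised 5 of the 35 genes, AT7519 lowered most of the stress regulators while raising several biosynthetic enzymes, and adding OSMI-2 to AT7519 raised enzymes and transporters. The calls come from limma on log2(normalised count + 1), at a Benjamini-Hochberg adjusted p below 0.05 over all tested genes. With OSMI-2, 5 genes rose, where 0.645% of all tested genes did. None fell, where 2.38% of all genes did; at an unadjusted p below 0.05, 11 were higher and 0 lower, and edgeR and DESeq2 also called 0 falls. The median log2 change of the 35 was 0.21, against -0.02 over all tested genes. With AT7519, 7 rose and 15 fell, against a background of 26% rising and 27.2% falling. With the combination, 12 rose and 12 fell against control, where 26.3% and 27.6% of all genes did. Against AT7519 alone, the combination raised 10 and lowered 1, where 7.21% and 12.5% of all genes rose and fell, and the median was 0.18 against -0.02 over all genes. The comparisons against control share the control libraries, and those of the combination share its libraries, so they are not independent of each other.

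These counts depend on scaling and on single libraries. Scaled to equal mitochondrial mRNAs, the median of all genes moved by -0.91 with AT7519 and by -0.95 with the combination. Of the listed genes 0 then rose and 34 and 29 fell. Over all 19393 tested genes, 383 rose and 14656 fell with AT7519, and 425 rose and 14590 fell with the combination. Each rise against control described below for AT7519 or the combination is therefore relative to the deposited scale. On the same scaling the 10 rises of the combination against AT7519 became 7, and the 5 genes called with OSMI-2 became 3, of which 2 were among the 5. Leaving out any 1 control or OSMI-2 library lowered the OSMI-2 calls, among the 35 and among all tested genes alike. The median log2 change of the 35 was then 0.19 and 0.20 without control replicates 1 and 2. It was 0.05 and 0.35 without OSMI-2 replicates 1 and 2. The OSMI-2 count was 0 without a filter on low values, where 29 of 33378 genes rose and 72 fell. It was also 0 without the mean-variance trend, where limma called no gene at all. Without that trend the count against AT7519 alone was 0 too, where 364 genes rose and 501 fell over all tested genes.

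**Figure D1:**
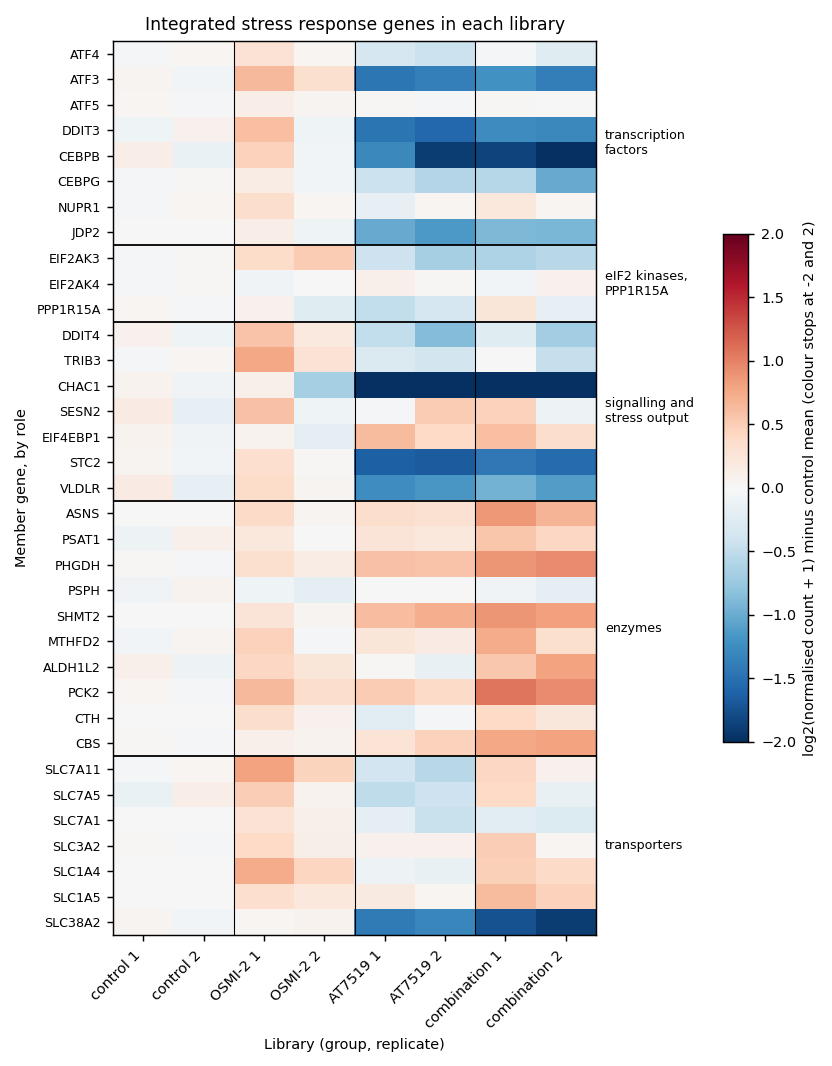
Each row is a gene, grouped by role, and each column a library; colour gives log2(normalised count + 1) minus the mean of the 2 control libraries on the deposited scale, and stops at -2 and 2. The transcription factors and stress outputs are mostly blue in the 4 libraries with AT7519, while the enzymes are mostly red there; under scaling to mitochondrial mRNAs the called enzyme rises turn negative except PCK2 in the combination.

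Among the 8 transcription factors, 6 fell with AT7519 and 1 rose with OSMI-2, where 27.2% and 0.645% of all tested genes did. ATF4, the central factor of the response, gave 38593 and 40461 normalised counts in control, 48543 and 40574 under OSMI-2, 31288 and 29429.6 under AT7519, and 38466 and 33242 under both agents. Both AT7519 libraries lay below all 6 others, whereas the ranges of OSMI-2 and the combination were wide. ATF4 fell by 0.38 with AT7519 (SE 0.09, adjusted p = 0.0031); without limma's trend that call was lost, at an adjusted p of 0.0536. Its log2 change was 0.17 with OSMI-2 (adjusted p = 0.387), -0.14 with the combination (0.208) and 0.24 for the combination against AT7519 (0.0896), none called on the deposited scale. Scaled to equal totals, the combination was called against control (-0.40, adjusted p = 0.00197) and against AT7519 (0.32, 0.0266). Against AT7519 it was also called under equal upper quartiles (0.34, 0.0206), and against control under scaling to mitochondrial mRNAs (-1.12, 6.25e-20).

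ATF3, a stress-induced factor and an ATF4 target, gave 3728 and 3463 normalised counts in control, 5644 and 4474 under OSMI-2, 1320.0 and 1387 under AT7519, and 1546 and 1371 under both agents. Both OSMI-2 libraries lay above control, and all 4 libraries with AT7519 lay far below it. ATF3 rose by 0.48 with OSMI-2 (SE 0.12, adjusted p = 0.0421), a call that was lost without either control or either OSMI-2 library (adjusted p 0.0966 to 0.427) and when scaled to mitochondrial mRNAs (0.36, adjusted p = 0.131). It fell 2.65-fold with AT7519 (log2 change -1.41, SE 0.12, adjusted p = 4.37e-07) and 2.47-fold with the combination (-1.30, adjusted p = 5.73e-07).

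DDIT3 (CHOP), a factor linked to cell death under prolonged ER stress, gave 3222 and 3613 normalised counts in control, 5170.2 and 3212 under OSMI-2, 1233 and 1149 under AT7519, and 1425 and 1402 under both agents. The 2 OSMI-2 libraries lay on either side of control, and the 4 libraries with AT7519 lay below all others. DDIT3 fell 2.87-fold with AT7519 (log2 change -1.52, SE 0.16, adjusted p = 3.57e-06) and 2.41-fold with the combination (-1.27, adjusted p = 1.5e-05); with OSMI-2 its change of 0.26 was not called (adjusted p = 0.468). Its gene model overlaps other protein-coding genes on both strands, with which reads could be shared.

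CEBPB, a C/EBP factor that can pair with ATF4, gave 930.4 and 782 normalised counts in control, 1180.45 and 821 under OSMI-2, 350.0 and 229 under AT7519, and 237 and 179 under both agents. The libraries with AT7519 again lay below all others. CEBPB fell 3.01-fold with AT7519 (log2 change -1.59, SE 0.23, adjusted p = 4.18e-05) and 4.13-fold with the combination (-2.05, adjusted p = 3.58e-06). CEBPG, a second C/EBP partner, fell by 0.50 with AT7519 and by 0.79 with the combination (adjusted p = 0.00326 and 8.75e-05). JDP2, a repressor of the AP-1 family, fell by 1.08 and by 0.91 (adjusted p = 7.14e-06 and 2.91e-05). ATF5, a factor also controlled by translation, and NUPR1, a stress-induced chromatin protein, were not called in any comparison on the deposited scale. Their log2 changes were 0.09 and 0.19 with OSMI-2 and -0.01 and -0.06 with AT7519.

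Of the genes that act on eIF2 itself, EIF2AK3, which encodes the ER kinase PERK, moved in opposite directions under the 2 single agents. It gave 4058 and 4154 normalised counts in control, 5309 and 5855 under OSMI-2, 3089 and 2593 under AT7519, and 2673 and 2798 under both agents. The OSMI-2 libraries were the highest, and the libraries with AT7519 were all below control. EIF2AK3 rose by 0.44 with OSMI-2 (SE 0.10, adjusted p = 0.0334), a call lost without either control or either OSMI-2 library (adjusted p 0.0975 to 0.329) and when scaled to mitochondrial mRNAs (0.32, adjusted p = 0.17). It fell by 0.54 with AT7519 (adjusted p = 0.000455) and by 0.59 with the combination (adjusted p = 0.000205). The interaction, which is the OSMI-2 change under AT7519 minus that without it, was -0.49 (SE 0.14, adjusted p = 0.149). It was called by DESeq2 (adjusted p = 0.0231), which called 60 rises and 498 falls among 13377 genes in this test, but not by edgeR. EIF2AK4, the amino acid sensor GCN2, had changes between -0.05 and 0.07 in the comparisons of 2 groups, none called on the deposited scale. PPP1R15A (GADD34), the inducible subunit that directs a phosphatase to eIF2, had -0.42 with AT7519 (adjusted p = 0.075) and 0.46 for the combination against AT7519 (adjusted p = 0.102), neither called.

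Of the 7 regulators of growth signalling and stress output, 4 fell and 1 rose with AT7519, and the same counts held for the combination. Over all tested genes 27.2% fell and 26% rose with AT7519, and 27.6% and 26.3% with the combination. CHAC1, which degrades glutathione, gave 1881 and 1703 normalised counts in control, 1929 and 1125 under OSMI-2, 238 and 289 under AT7519, and 261 and 169.6 under both agents. It fell 6.80-fold with AT7519 (log2 change -2.77, SE 0.24, adjusted p = 4.85e-07) and 8.46-fold with the combination (-3.08, adjusted p = 1.37e-07), the largest fall among the 35 genes in each of these comparisons. With OSMI-2 its libraries straddled the control level and the change of -0.28 was not called (adjusted p = 0.606).

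STC2, a secreted glycoprotein induced by ER stress, gave 13517 and 12611 normalised counts in control, 16403 and 13230.2 under OSMI-2, 4216 and 4108 under AT7519, and 4834 and 4468 under both agents. The 4 libraries with AT7519 formed a narrow low group. STC2 fell 3.14-fold with AT7519 (log2 change -1.65, SE 0.10, adjusted p = 3.91e-08) and 2.81-fold with the combination (-1.49, adjusted p = 4.43e-08). VLDLR, a lipoprotein receptor, fell 2.30-fold with AT7519, from 1529 ± 249 to 659.7 ± 29.1 normalised counts (mean ± SD, n = 2 each), and 2.05-fold with the combination.

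DDIT4 (REDD1), an inhibitor of mTORC1, fell by 0.68 with AT7519 (adjusted p = 0.0017) and by 0.47 with the combination (adjusted p = 0.0178); the second call was lost without control replicate 1 (adjusted p = 0.124) or combination replicate 2 (0.248). EIF4EBP1, the translation repressor 4E-BP1, rose by 0.51 with AT7519 and by 0.48 with the combination (adjusted p = 0.00172 and 0.00278), but had -0.40 and -0.50 under scaling to mitochondrial mRNAs. TRIB3, a pseudokinase that restrains ATF4, was higher in both OSMI-2 libraries (15992 and 11475 normalised counts) than in control (9108 and 9622), and its change of 0.53 was not called (adjusted p = 0.0672). TRIB3 was called with the replicate number as a block (0.53, adjusted p = 0.0175) and when scaled to mitochondrial mRNAs (0.41, adjusted p = 0.0325). SESN2, a leucine sensor upstream of mTORC1, had changes between -0.07 and 0.25 that were not called in any comparison of 2 groups on the deposited scale.

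**Figure D2:**
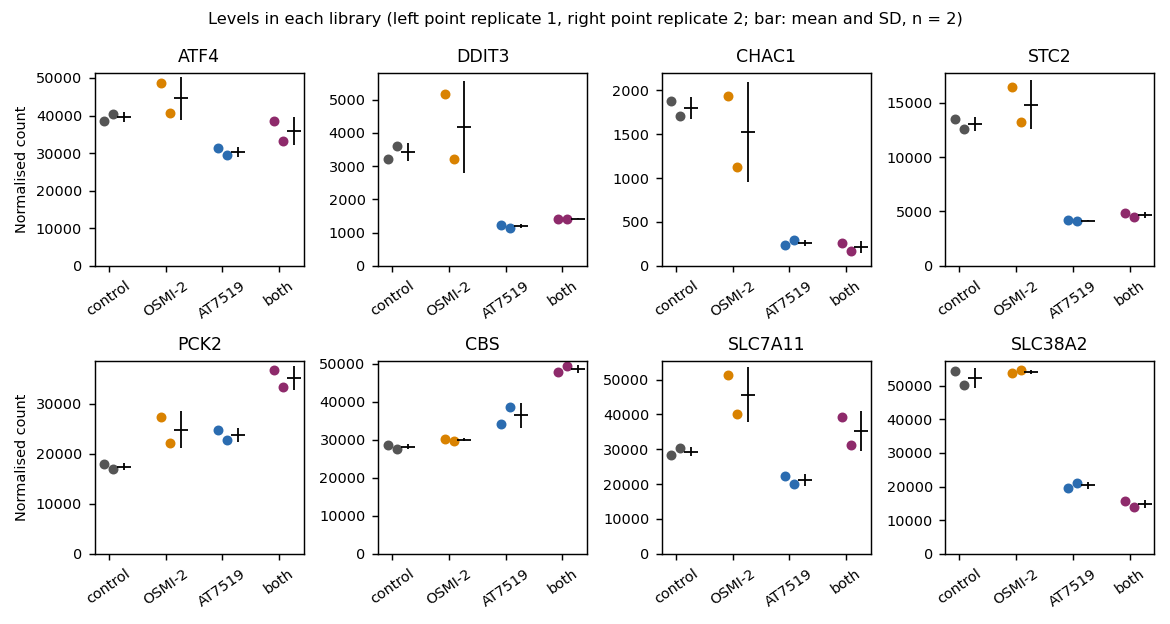
Normalised counts of 8 of the genes in each library (points), with the mean (line) and SD (bar) of the 2 libraries per group. DDIT3, CHAC1, STC2 and SLC38A2 are low in all 4 libraries with AT7519, while PCK2 and CBS are highest in the combination on the deposited scale; scaled to mitochondrial mRNAs, CBS in the combination is 0.19 (log2) below control.

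Most of the 10 enzymes of amino acid, serine and one-carbon metabolism moved up on the deposited scale with AT7519 and with the combination. Most transcription factors and regulators of stress output moved down there. With OSMI-2 the medians of these groups were all positive. With AT7519 6 of the enzymes rose and the other 4 were not called, and with the combination 9 rose and 1 was not called. Of all tested genes, 26% and 26.3% rose in these comparisons. Their median log2 change was 0.22 with OSMI-2, 0.28 under AT7519 and 0.72 under both agents, against -0.02, -0.00 and 0.02 over all tested genes. Scaled to mitochondrial mRNAs, all 6 rises with AT7519 turned negative (-0.24 to -0.68), and of the 9 with the combination 8 did so (-0.06 to -0.67), while PCK2 stood at 0.03. Scaled to equal totals, ASNS and PSAT1 also turned negative with AT7519 (-0.02 and -0.11), and PCK2 (0.10, adjusted p = 0.384) and CBS (0.03, 0.801) lost their calls. With the combination, MTHFD2 (adjusted p = 0.132), ALDH1L2 (0.137) and CTH (0.76) lost theirs under that scaling.

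PCK2, the mitochondrial phosphoenolpyruvate carboxykinase, was the enzyme that rose in each of the 4 comparisons of 2 groups on the deposited scale. It gave 17948 and 16920.1 normalised counts in control, 27392 and 22152 under OSMI-2, 24741 and 22772 under AT7519, and 36737 and 33377 under both agents. Every treated library lay above both controls, and both combination libraries lay above all others. PCK2 rose by 0.50 with OSMI-2 (SE 0.10, adjusted p = 0.0174), by 0.45 with AT7519 (adjusted p = 0.00127), by 1.01 with the combination (adjusted p = 8.97e-07) and by 0.56 in the combination against AT7519 (adjusted p = 0.00135). Under scaling to mitochondrial mRNAs its AT7519 change was -0.47, and under equal totals it was 0.10 and not called (adjusted p = 0.384). The OSMI-2 call was lost without control replicate 2 (adjusted p = 0.297) or OSMI-2 replicate 1 (0.135).

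ALDH1L2, a mitochondrial folate enzyme, gave 136 and 118 normalised counts in control, 169.8 and 151 under OSMI-2, 129 and 114 under AT7519, and 185 and 222 under both agents. Both combination libraries lay above all others. It rose by 0.73 in the combination against AT7519 (SE 0.22, adjusted p = 0.033), with adjusted p from 0.051 to 0.18 without control replicate 1, either OSMI-2 library, either AT7519 library or combination replicate 2. That call was also lost when scaled to mitochondrial mRNAs (0.67, adjusted p = 0.068) and without a filter on low values (adjusted p = 0.0694). Against control it rose by 0.67 with the combination (adjusted p = 0.0204), which was -0.30 under scaling to mitochondrial mRNAs and was lost without control replicate 2 (adjusted p = 0.134) or combination replicate 2 (0.117).

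The serine pathway was led by PHGDH, its first enzyme, with 36312 ± 603 normalised counts in control, 42793 ± 3768 under OSMI-2, 54206 ± 480.4 under AT7519 and 68511 ± 1979.7 under both agents (mean ± SD, n = 2 each). It rose by 0.58 with AT7519 and by 0.92 with the combination (-0.34 and -0.06 scaled to mitochondrial mRNAs). The combination raised it by 0.34 over AT7519 (adjusted p = 0.00611), a call lost without combination replicate 2 (adjusted p = 0.0617) and when scaled to mitochondrial mRNAs (0.28, adjusted p = 0.0964). PSAT1, the next enzyme, rose by 0.23 with AT7519 (adjusted p = 0.037) and by 0.49 with the combination (adjusted p = 0.000288), with -0.68 and -0.49 scaled to mitochondrial mRNAs. Its AT7519 call was lost without control replicate 1 (adjusted p = 0.306), AT7519 replicate 1 (0.118) or AT7519 replicate 2 (0.0721). PSPH, which completes serine synthesis, was not called in any comparison on the deposited scale, with changes from -0.14 to 0.00 in those of 2 groups.

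SHMT2, which splits serine for mitochondrial one-carbon units, rose by 0.68 with AT7519 and by 0.85 with the combination (adjusted p = 8.56e-06 and 8.11e-07), with -0.24 and -0.13 scaled to mitochondrial mRNAs. MTHFD2, the next mitochondrial folate enzyme, rose by 0.53 with the combination (adjusted p = 0.00552), with -0.45 on the mitochondrial scale. That call was lost without combination replicate 1 (adjusted p = 0.100), the library in which MTHFD2 gave 28103 normalised counts against 20894 in replicate 2. ASNS, asparagine synthetase, rose by 0.32 with AT7519 (adjusted p = 0.0127) and by 0.77 with the combination (adjusted p = 1.44e-05), with -0.59 and -0.21 scaled to mitochondrial mRNAs. The AT7519 call was lost without control replicate 1 (adjusted p = 0.0563), control replicate 2 (0.0561) or AT7519 replicate 1 (0.0535). ASNS also rose by 0.45 in the combination against AT7519 (adjusted p = 0.0066), a call lost without combination replicate 1 (0.0611).

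In the transsulfuration pathway from homocysteine to cysteine, CBS gave 28129.9 ± 704 normalised counts in control, 29941 ± 398 under OSMI-2, 36397.5 ± 3258 under AT7519 and 48567 ± 961 under both agents (mean ± SD, n = 2 each). It rose by 0.37 with AT7519 and by 0.79 with the combination, with -0.55 and -0.19 scaled to mitochondrial mRNAs, and by 0.42 in the combination against AT7519 (adjusted p = 0.00178). Its OSMI-2 change was 0.09 (adjusted p = 0.601), and the interaction of 0.33 was not called (adjusted p = 0.214). CTH, the following enzyme, rose by 0.31 with the combination (adjusted p = 0.0498; -0.67 scaled to mitochondrial mRNAs) and by 0.44 in the combination against AT7519 (adjusted p = 0.0251). The first CTH call was lost without any 1 of the control, OSMI-2 or combination libraries (adjusted p 0.0507 to 0.231). The second was lost without AT7519 replicate 1 (0.139), combination replicate 1 (0.126) or combination replicate 2 (0.0525), and when scaled to mitochondrial mRNAs (0.38 on the log2 scale, adjusted p = 0.0987).

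**Figure D3:**
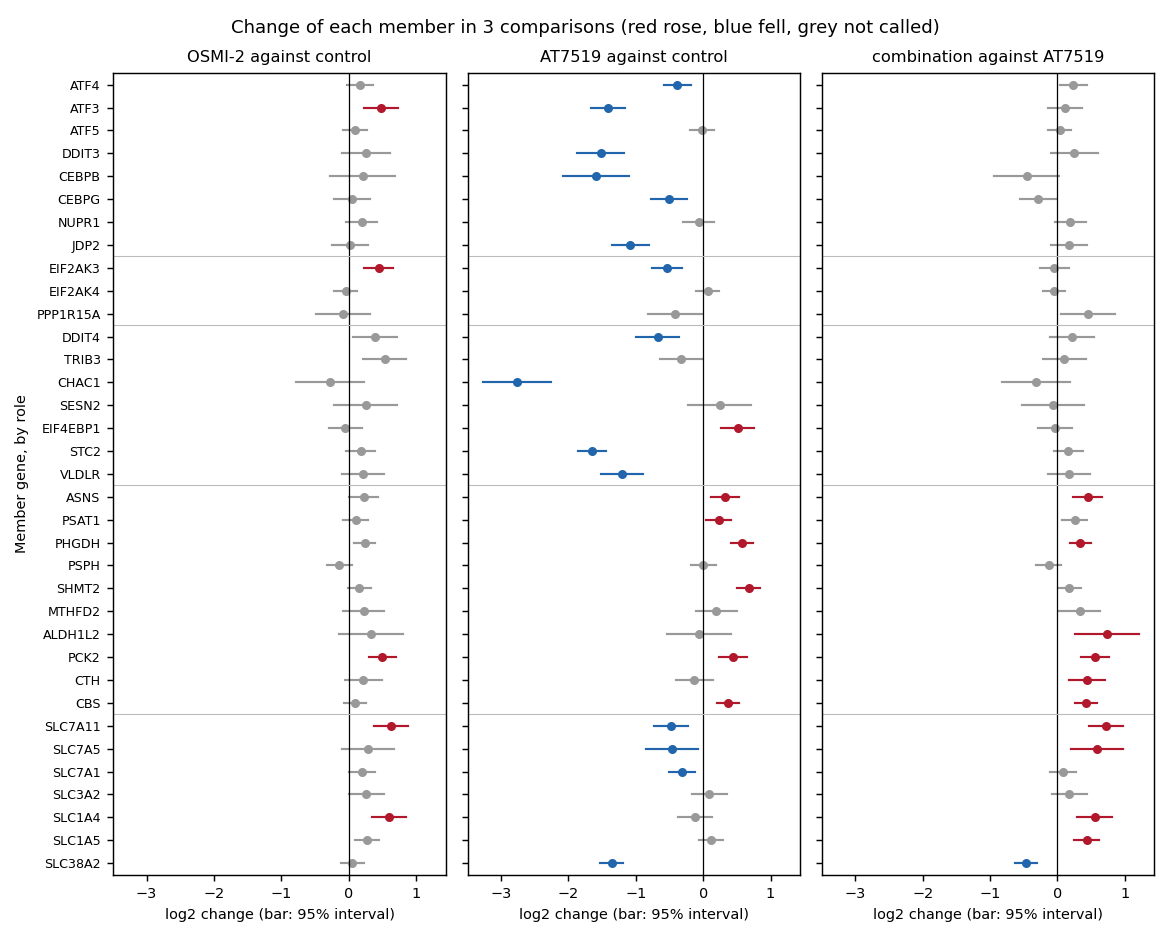
Fitted log2 change of each gene (point) with its 95% interval (bar) for OSMI-2 against control, AT7519 against control and the combination against AT7519; red points rose, blue points fell and grey points were not called. The enzymes and transporters hold all 10 rises of the right panel; the 7 rises of the middle panel are on the deposited scale and turn negative when libraries are scaled to mitochondrial mRNAs.

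Among the 7 amino acid transporters, 2 rose with OSMI-2, 4 fell with AT7519, and 4 rose and 1 fell in the combination against AT7519. Over all tested genes 0.645% rose with OSMI-2, 27.2% fell with AT7519, and 7.21% rose and 12.5% fell in that last comparison. SLC7A11 (xCT), the cystine importer, gave 28457 and 30264 normalised counts in control, 51297 and 40160.5 under OSMI-2, 22399.9 and 20013 under AT7519, and 39304 and 31126.5 under both agents. Both OSMI-2 libraries lay above control and both AT7519 libraries below it. SLC7A11 rose by 0.63 with OSMI-2 (SE 0.12, adjusted p = 0.0164) and by 0.72 in the combination against AT7519 (adjusted p = 0.000985), and it fell by 0.47 with AT7519 (adjusted p = 0.00379). The combination against control stood at 0.25 (adjusted p = 0.0854), not called, and the interaction at 0.10 (adjusted p = 0.941). The former was called under equal upper quartiles (0.39, adjusted p = 0.0114) and with the replicate number as a block (0.25, adjusted p = 0.0308), and it was -0.73 scaled to mitochondrial mRNAs. The OSMI-2 call was lost without control replicate 1 (adjusted p = 0.0762), control replicate 2 (0.22) or OSMI-2 replicate 1 (0.122).

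SLC1A4, a carrier of alanine, serine and cysteine, gave 1367 and 1362 normalised counts in control, 2291 and 1844 under OSMI-2, 1278 and 1226 under AT7519, and 1890.5 and 1778 under both agents. The 4 libraries with OSMI-2 lay above the 4 without it. SLC1A4 rose by 0.59 with OSMI-2 (SE 0.12, adjusted p = 0.0203) and by 0.55 in the combination against AT7519 (adjusted p = 0.0056). The OSMI-2 call was lost without either control or either OSMI-2 library (adjusted p 0.0694 to 0.285) and when scaled to mitochondrial mRNAs (0.47, adjusted p = 0.0502). Against control the combination raised it by 0.43 (adjusted p = 0.00719), which was -0.55 scaled to mitochondrial mRNAs. SLC1A5 (ASCT2), a glutamine carrier, gave 12386 ± 67.4 normalised counts in control, 14979.7 ± 854 under OSMI-2, 13441 ± 924 under AT7519 and 18155 ± 1632 under both agents (mean ± SD, n = 2 each). It rose by 0.43 in the combination against AT7519 (adjusted p = 0.00323) and by 0.55 against control, with -0.43 for the latter scaled to mitochondrial mRNAs.

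SLC7A5 (LAT1), a carrier of large neutral amino acids, gave 944 and 1135 normalised counts in control, 1460.1 and 1092 under OSMI-2, 725 and 779 under AT7519, and 1367 and 937 under both agents. The AT7519 libraries were the lowest, and the combination libraries lay far apart. SLC7A5 rose by 0.59 in the combination against AT7519 (SE 0.18, adjusted p = 0.0331), a call lost without AT7519 replicate 1 (0.126), AT7519 replicate 2 (0.0526) or combination replicate 1 (0.268). It fell by 0.46 with AT7519 (adjusted p = 0.0431), a call lost without control replicate 2 (0.267), AT7519 replicate 1 (0.135) or AT7519 replicate 2 (0.0669). SLC3A2, the heavy chain shared by SLC7A5 and SLC7A11, was not called in any comparison on the deposited scale without a replicate block, with 0.26 for OSMI-2 (adjusted p = 0.283). In the combination against control it was called under equal upper quartiles (0.40, adjusted p = 0.0131) and with the replicate number as a block (0.26, adjusted p = 0.028). SLC7A1, a carrier of arginine and lysine, fell by 0.32 with AT7519 (adjusted p = 0.00821; 0.103 without AT7519 replicate 2) and by 0.24 with the combination (adjusted p = 0.034), and the second call was lost without either control or either combination library (0.0714 to 0.136).

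SLC38A2 (SNAT2), a carrier of small neutral amino acids, was the transporter that fell further when OSMI-2 was added to AT7519. It gave 54327 and 50249 normalised counts in control, 53679.6 and 54566 under OSMI-2, 19666 and 21138 under AT7519, and 15623 and 13969 under both agents. Control and OSMI-2 overlapped, the AT7519 libraries lay below both, and the combination libraries lay lowest. SLC38A2 fell 2.56-fold with AT7519 (log2 change -1.36, SE 0.08, adjusted p = 2.7e-08) and 3.54-fold with the combination (-1.82, adjusted p = 2.09e-09), and by 0.46 in the combination against AT7519 (adjusted p = 0.00119).

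The interaction asks whether the OSMI-2 change differed with and without AT7519, and SLC38A2 was the sole listed gene called, at -0.52 (SE 0.11, adjusted p = 0.0403). Across all tested genes, 0.975% of genes fell and 0.0619% rose in this test. Of the listed genes 0 rose by limma; at an unadjusted p below 0.05, 1 was higher and 3 lower, and edgeR and DESeq2 also called 0 rises. The SLC38A2 interaction ran from -0.60 to -0.43 without each library in turn. Its call was kept without combination replicate 1 and lost without each of the other 7 libraries. Interaction calls over all tested genes also became fewer without any 1 control or OSMI-2 library, AT7519 replicate 1 or combination replicate 2. They became more numerous without AT7519 replicate 2 or combination replicate 1. For SLC38A2, edgeR gave an adjusted p of 0.0635. All 10 enzymes had positive interaction values, with a median of 0.13, and none of them was called.

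The listed genes also separated the replicates of the groups that received OSMI-2. In OSMI-2, 32 of 35 were higher in replicate 1 than in replicate 2, where 54.0% of all tested genes were. The median log2 gap was 0.28, against 0.02 over all tested genes. In the combination 30 of 35 were, where 49.4% of all genes were, with a median of 0.17 against -0.00. In AT7519 24 and in control 19 of 35 were higher in replicate 1, where 53.2% and 50.4% of all genes were. Their medians were 0.06 and 0.01, against 0.02 and 0.00 over all genes. The part of this gap in the OSMI-2 results was not tested beyond the fits without single libraries: without OSMI-2 replicate 1, the 5 log2 changes called with OSMI-2 ran from 0.32 to 0.51, all positive and none called.

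**Figure D4:**
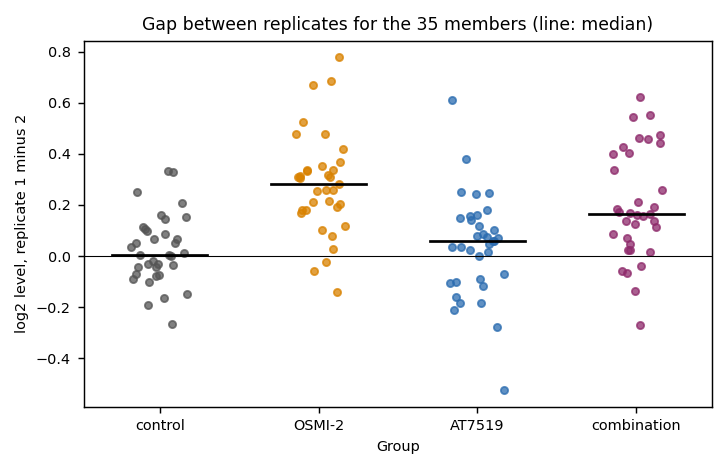
Each point is 1 of the 35 genes and gives its log2 level in replicate 1 minus that in replicate 2 of the same group; the line is the median. The points centre on 0 in control, and most lie above 0 with OSMI-2 (32 of 35) and the combination (30 of 35).

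Other genes of the pathway were read from lists outside the 35. Of 24 tested further reported ATF4 targets, 5 rose with OSMI-2 and the other 19 were not called, where 0.645% of all tested genes rose. With AT7519 7 rose on the deposited scale and 6 fell, near the shares over all genes (26% and 27.2%). In the combination against AT7519 7 rose and 3 fell, where 7.21% and 12.5% of all genes did. FAM129A (NIBAN1), a stress-induced regulator of eIF2 signalling, averaged 1525 normalised counts in control, 3071 under OSMI-2, 1389 under AT7519 and 2898 under both agents. It rose by 0.98 with OSMI-2 (adjusted p = 0.0142; 0.107 without OSMI-2 replicate 1 and 0.278 without control replicate 2) and by 1.05 in the combination against AT7519 (adjusted p = 0.00126). ADM2, a secreted peptide, fell 3.46-fold with AT7519, from a mean of 5426 to 1573 normalised counts (log2 change -1.79, adjusted p = 6.51e-08).

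Of 20 cytosolic aminoacyl-tRNA synthetases, which charge tRNAs, 15 rose with AT7519 on the deposited scale and the other 5 were not called. In the combination against AT7519 6 fell. For this and the following lists, limma called 26% of all tested genes up and 27.2% down with AT7519. The shares were 7.21% and 12.5% in the combination against AT7519, and 0.645% and 2.38% with OSMI-2. With OSMI-2, 2 fell by limma and 5 by DESeq2. For these lists, DESeq2 called 395 rises and 1101 falls with OSMI-2 among the 13377 genes for which it gave an adjusted p. Of 17 genes of the eIF2 machinery, 11 rose and 1 fell with AT7519 on the deposited scale, and 1 rose and 5 fell in the combination against AT7519; with OSMI-2 limma called 0 of the 17, with 1 higher and 5 lower at an unadjusted p below 0.05, edgeR called 0, and DESeq2 called 1 rise and 3 falls. Of 17 genes of the ATF6 and IRE1 arms of the unfolded protein response, 1 rose with OSMI-2, namely DNAJB9, an ER co-chaperone, by 1.01 (adjusted p = 0.00456; 0.0646 without OSMI-2 replicate 2). Where limma called that 1 rise among the 17 with OSMI-2, edgeR called 1 and DESeq2 called 3. With AT7519, 11 of the 17 rose on the deposited scale and 4 fell. HSPA5 (BiP), the main ER chaperone, rose by 0.63 (adjusted p = 8.05e-06), with -0.29 scaled to mitochondrial mRNAs. ERN1, the IRE1 sensor, and XBP1, the factor whose mRNA it splices, fell by 1.06 and by 0.68 (adjusted p = 3.97e-06 and 0.00102).

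Gene structure was compared with GENCODE release 29, matched by symbol for all 35 genes. The genes that fell with AT7519 had a median span of 14.8 kb and 4 exons (15 genes), those that rose 23.8 kb and 12 exons (7 genes), and those not called 28.6 kb and 8 exons (13 genes). Over 12743 tested protein-coding genes the medians were 33.2 kb and 10 exons. The 8 transcription factors had a median span of 5.85 kb. Protein-coding genes of the opposite strand overlap ALDH1L2, ATF5, DDIT3, MTHFD2, PCK2, SHMT2 and SLC1A5, and ASNS, ATF4, EIF4EBP1, MTHFD2, PSAT1, PSPH and SLC7A5 have annotated pseudogenes, so reads of these genes could be shared.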

How the data were processed

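Gene read counts divided by 1 size factor per library were deposited, so each value is a scaled coverage signal, called a normalised count here. The submitters' processing notes name STAR, HTSeq, DESeq2, hg19 and GRCh37. Not given in the sources used here are versions, annotation and the counting strand; the kit was strand-specific per the labels' protocols. Dropping 28 unnamed rows left 55737 genes. Dividing each column by its smallest step gave whole reads for 100% of values (tolerance 0.01).

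Genes with a mean of at least 10 were tested with limma 3.58.1 (R 4.3.3, mean-variance trend, 4 residual and 10.1 prior degrees of freedom) on log2(value + 1), in 1 model of 4 group means. Tests were two-sided, with Benjamini-Hochberg adjustment over all genes in each of 5 comparisons. Changes are on the log2(value + 1) scale. A simulation was also run, with no gene changed by AT7519 alone. That setting differs from these data, and its outcome is not used here.

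The members and lists were chosen with earlier results of these data known. Values in all 8 libraries are given for ATF4 and, per comparison, for up to 6 called members with the largest change; other members appear by means or counts, and TRIB3 and MTHFD2 were added after their values were seen. Alternatives were pseudocounts of 0.5 and 8, a minimum mean of 50 or none, 3 other scalings, no trend, a replicate block, each library left out, and edgeR 4.0.16 and DESeq2 1.42.0 on the recovered reads. A single marker of other cells is not reported here.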

Additional observations from a re-analysis of the deposited data

Results flagged for a closer look

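SLC38A2 stood out because its response to OSMI-2 differed with and without AT7519, with an interaction of -0.52 (limma, SE 0.11, adjusted p = 0.0403). It changed by 0.05 with OSMI-2 alone (not called) and fell by 0.46 when OSMI-2 was added to AT7519. The interaction ran from -0.60 to -0.43 without each library in turn, and the call was kept without combination replicate 1 and lost without each of the other 7. For this and the following genes, interaction calls over all tested genes also became fewer without any 1 control or OSMI-2 library, AT7519 replicate 1 or combination replicate 2. The SLC38A2 call was also lost without a filter on low values (adjusted p = 0.131) and under scaling to equal totals (0.0578), upper quartiles (0.0801) or mitochondrial mRNAs (0.245). It was lost too without limma's trend (0.388) and with edgeR (0.0635).

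Among genes outside the 35, PPP1R15B, which encodes the constitutive subunit directing a phosphatase to eIF2, gave an interaction of -1.15 (SE 0.18, adjusted p = 0.0136). It gave 16730 and 16304 normalised counts in control, 15453 and 15292 with OSMI-2, 18076 and 13602 under AT7519, and 7566 and 5737 under both agents. The combination libraries lay below all 6 others, while the other groups overlapped or lay close together. It fell 2.38-fold in the combination against AT7519 (adjusted p = 7.85e-05). The interaction call was lost without control replicate 1 (adjusted p = 0.0787), control replicate 2 (0.0811), OSMI-2 replicate 1 (0.0641) or OSMI-2 replicate 2 (0.102), without a low-value filter (0.0589) and without limma's trend (0.372).

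GDF15, a secreted stress cytokine, had an interaction of -0.87 (adjusted p = 0.0303), with 0.57 for OSMI-2 alone and -0.30 for the combination against AT7519 (not called). The interaction call was lost without 5 of the 8 libraries in turn, namely control replicate 2, OSMI-2 replicates 1 and 2, AT7519 replicate 1 and combination replicate 2 (adjusted p 0.0953 to 0.176). It was also lost without a low-value filter (0.125), under equal upper quartiles (0.0558) and without limma's trend (0.408). DNAJC3, an inhibitor of eIF2 kinases, had an interaction of -0.61 (adjusted p = 0.0469), with 0.29 for OSMI-2 alone (not called) and -0.32 for the combination against AT7519. Its call was kept without AT7519 replicate 2 and lost without each other library (adjusted p 0.0861 to 0.251). It was also lost at a pseudocount of 0.5 (0.0501), without a low-value filter (0.127), under equal upper quartiles (0.0792) or mitochondrial scaling (0.132) and without limma's trend (0.391).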

How the results depend on the processing

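Each of the 35 genes had at least 93 reads in every library, and each group had 2 libraries. Leaving out 1 library at a time gave 0 to 6 called genes of 35 for OSMI-2, 19 to 23 for AT7519, 21 to 24 for the combination against control, 8 to 11 for the combination against AT7519 and 0 to 1 for the interaction. OSMI-2 calls over all tested genes also became fewer without any 1 control or OSMI-2 library. A low OSMI-2 count in those fits is therefore not particular to the 35 genes. Without a filter on low values the counts among the 35 were 0 for OSMI-2 and 0 for the interaction. Without limma's trend they were 0 for OSMI-2, 14 for AT7519, 0 for the combination against AT7519 and 0 for the interaction. The interaction also had 0 under each of the 3 other scalings and with edgeR, and 2 with DESeq2 (SLC38A2 and EIF2AK3). Over all tested genes, the interaction gave 11 rises and 178 falls under equal totals, and 11 and 107 under equal upper quartiles. It gave 53 and 230 under scaling to mitochondrial mRNAs and 16 and 168 with edgeR. DESeq2 called 60 rises and 498 falls among the 13377 genes for which it gave an adjusted p. The causes of these differences were not tested.

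Scaling to mitochondrial mRNAs gave 3 called genes for OSMI-2 and 34 for AT7519, and moved the median of all genes by -0.14 for OSMI-2, -0.91 for AT7519 and -0.95 for the combination. With AT7519 the values of these genes turned negative: EIF2AK4 (-0.85), SESN2 (-0.67), EIF4EBP1 (-0.40), ASNS (-0.59), PSAT1 (-0.68), PHGDH (-0.34), PSPH (-0.92), SHMT2 (-0.24), MTHFD2 (-0.72), PCK2 (-0.47), CBS (-0.55), SLC3A2 (-0.83) and SLC1A5 (-0.80). With the combination against control the same happened to ATF5 (-0.96), NUPR1 (-0.85), EIF2AK4 (-0.96), PPP1R15A (-0.93), SESN2 (-0.80), EIF4EBP1 (-0.50), ASNS (-0.21), PSAT1 (-0.49), PHGDH (-0.063), SHMT2 (-0.13), MTHFD2 (-0.45), ALDH1L2 (-0.30), CTH (-0.67), CBS (-0.19), SLC7A11 (-0.73), SLC7A5 (-0.85), SLC3A2 (-0.71), SLC1A4 (-0.55) and SLC1A5 (-0.43). Scaling to equal totals moved the median of all genes by -0.34 with AT7519 and -0.23 with the combination. Of the listed genes 2 rose and 24 fell, and 7 rose and 17 fell. Over all 19393 tested genes 2036 rose and 8364 fell, and 2652 rose and 7369 fell. Under this scaling 30 of the 35 were negative with AT7519 and 22 with the combination, against 22 and 15 on the deposited scale. Among genes called on either scale, EIF2AK4 (-0.28), ASNS (-0.019), PSAT1 (-0.11), PSPH (-0.34) and SLC1A5 (-0.23) turned negative with AT7519. With the combination ATF5 (-0.24) and EIF2AK4 (-0.24) did. The rises of EIF4EBP1, PCK2 and CBS with AT7519 stayed positive but were not called. Those of EIF4EBP1, MTHFD2, ALDH1L2, CTH and SLC1A4 with the combination did likewise. The 15 falls with AT7519 and the 12 with the combination were kept under both scalings. Under equal upper quartiles SLC7A5 with AT7519 and DDIT4 and SLC7A1 with the combination lost their calls. NUPR1, SLC7A11 and SLC3A2 were then called as rises with the combination, where 6476 of all tested genes rose and 4485 fell.

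With the replicate number as a block, the counts were 7 for OSMI-2, 23 for AT7519, 26 for the combination, 14 against AT7519 and 1 for the interaction. No call was lost, and DDIT4 and TRIB3 were added for OSMI-2. The block raised calls over all tested genes too. With OSMI-2 213 rose and 652 fell, where 125 and 461 did without the block. The combination against AT7519 had 1656 rises and 2639 falls, against 1399 and 2416 without it. The interaction had 38 and 366, against 12 and 189. Deviations of same-numbered libraries correlated at 0.02 to 0.12 over all genes. Over the 35 genes they correlated at 0.66 between OSMI-2 and the combination and at -0.20 to 0.15 between the other groups. Nothing in the labels ties equal numbers together, so the numbers were not taken to pair the libraries.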
